A study of Mus musculus with 8 samples.

Results

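The genes described here are 7 that keep sterol levels in the cell in balance: Srebf2, Scap, Insig1, Insig2, Stard4, Npc1 and Npc2. They were taken by name from the array annotation, and every probe set annotated to exactly 1 of these symbols was used, which gave 16 of the 45037 probe sets tested and 7 of 18193 genes. The samples were livers of 8 mice aged 2 days, each hybridised to its own Affymetrix array. Of these mice, 4 had the genotype Mfp2 -/- (knockout) and 4 were wild type (WT), and each group has replicates 1 to 4. Mfp2 is multifunctional protein 2, a peroxisomal enzyme encoded by Hsd17b4. The sources used here give no strain, feeding state or sex and do not say how the allele was made. Values are on a log2 scale, so a difference of 1 is a doubling, and all differences are knockout minus wild type.

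SREBP2, the product of Srebf2, is a transcription factor made as a membrane protein of the endoplasmic reticulum. When sterol in that membrane is scarce, the escort protein SCAP carries SREBP2 to the Golgi, where proteases release its active part, which turns on the genes of cholesterol synthesis and uptake. When sterol is plentiful, the INSIG proteins hold SCAP and SREBP2 back. Cholesterol that arrives with low-density lipoprotein (LDL) is handed out of the lysosome by NPC2 and NPC1, and STARD4 carries sterol between membranes. Insig1, Stard4 and Srebf2 itself are known targets of SREBP2, whereas Insig2 is known in liver for a transcript that insulin lowers.

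The DNA before the transcription start of the regulator's own gene and of Insig1 is printed here because both genes are known to answer to SREBP2. Each line shows the 250 bases before the start on the strand of the gene, from RefSeq on GRCm38.p6, with the sterol regulatory element letters ATCACCCCA, the CCAAT box (ATTGG on the other strand) and the E-box CACGTG in capitals where they occur. The Srebf2 window is chr15:82147019-82147268 and the Insig1 window is chr5:28071162-28071411, both on the plus strand.
Srebf2: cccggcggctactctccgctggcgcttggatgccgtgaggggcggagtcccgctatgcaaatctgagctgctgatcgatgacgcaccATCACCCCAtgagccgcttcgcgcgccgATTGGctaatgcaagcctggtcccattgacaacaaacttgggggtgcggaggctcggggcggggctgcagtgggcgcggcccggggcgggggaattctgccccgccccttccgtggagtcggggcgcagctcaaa
Insig1: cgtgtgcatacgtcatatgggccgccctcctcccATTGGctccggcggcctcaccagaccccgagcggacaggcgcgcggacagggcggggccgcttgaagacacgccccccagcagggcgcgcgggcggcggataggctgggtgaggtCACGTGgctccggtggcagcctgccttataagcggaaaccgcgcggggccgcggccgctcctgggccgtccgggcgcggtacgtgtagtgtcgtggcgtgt
The Srebf2 window held the letters ATCACCCCA, starting 163 bases before the start, and the next ATTGG lay 19 bases further on. Among all 32851 promoter windows of this length, 0.24% held ATCACCCCA on either strand, 33.8% held CCAAT and 6.02% held CACGTG. The Insig1 window held ATTGG starting 216 bases and CACGTG starting 101 bases before the start, and no ATCACCCCA. Its looser form TCACNCCA, which overlaps the first motif and was in 3.67% of windows, was found in the Srebf2 window only among those of the members. The fifth motif searched, GGGCGG, was in 32.7% of windows, with 4 matches in the Srebf2 window and 3 in that of Insig1. A window was listed for 5 of the 7 members, all but Stard4 and Npc1, with 8 windows in all, since Scap has 2 and Insig2 has 3. The 3 windows of Insig2 held no ATCACCCCA and no CACGTG, and 1 of them held 3 CCAAT boxes. The motifs were chosen with these sequences in view, and a match describes letters, not a bound site. Only fixed letters within 250 bases were searched, so a window without a match does not show that a gene lacks a sterol regulatory element.

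The targeted gene followed the labels, with Hsd17b4 between 3.25 and 4.29 in knockout and between 8.15 and 8.97 in wild type livers. Whether its probes fall inside the deleted part is not known from the sources used here. Arrays correlated over all probe sets at Pearson r of 0.983 to 0.993 within and of 0.976 to 0.989 across genotypes. Xist was high and Eif2s3y low in knockout 1, knockout 2 and wild type 3, so sex is not balanced. With the genotype in the fit, replicates 3 and 4 differed from replicates 1 and 2 at 229 probe sets in limma. Hepatocyte markers such as albumin were high in all arrays, with a mean over 12 markers of 12.14 to 12.33 in knockout and 12.04 to 12.13 in wild type livers. Higher knockout means were found for 9 of the 12, as for 53.3% of all genes, and lower means for 3. Their differences ran from -0.22 to 0.42 with a median of 0.13, and 0 passed the threshold. Markers of red cell precursors were lower in the knockout: 4 of 12 fell past the threshold, as 0.841% of all genes did, all 12 had lower means, as had 46.7% of all genes, and their mean was 7.60 to 8.39 against 8.82 to 9.01, with no marker below the median of all probe sets. In these whole-tissue samples fewer cells of a type and less RNA per cell cannot be told apart. Macrophage markers, 14 in number, had means of 7.23 to 7.99 in knockout and 7.09 to 7.70 in wild type livers, and 0 of them passed.

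All 7 genes had a higher mean in the knockout, as had 53.3% of all genes, and 0 passed the threshold of 0.05 on the limma adjusted p over all probe sets. The differences ran from 0.16 for Srebf2 to 0.61 for Insig1, with a median of 0.33, against a median of 0.01 over all genes. Of all 18193 genes, 1.15% passed, and 0.308% passed with a higher level in the knockout. At an unadjusted p under 0.05 there were 4 of the 7, Scap, Insig1, Npc1 and Npc2, where 6.4% of all genes were higher in the knockout at that level. The 4 knockout values lay above all 4 wild type values in 3 of the 7, Scap, Insig1 and Npc2, where 3.59% of all genes were separated in that direction. Over all 16 probe sets 14 had a higher knockout mean, for which no share over all probe sets is given. The 14 include a dim probe set of Npc2 with a difference of 0.00, and the count was 13 with median centring. An unadjusted limma p under 0.05 was found for 6 of the 14, 4 were separated and 0 passed. For these last counts, in that order, the shares of all 45037 probe sets with a higher level in the knockout were 5.17%, 3.09% and 0.198%. The genes were chosen with earlier results of these data known, so these counts are a description.

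**Figure D1:**
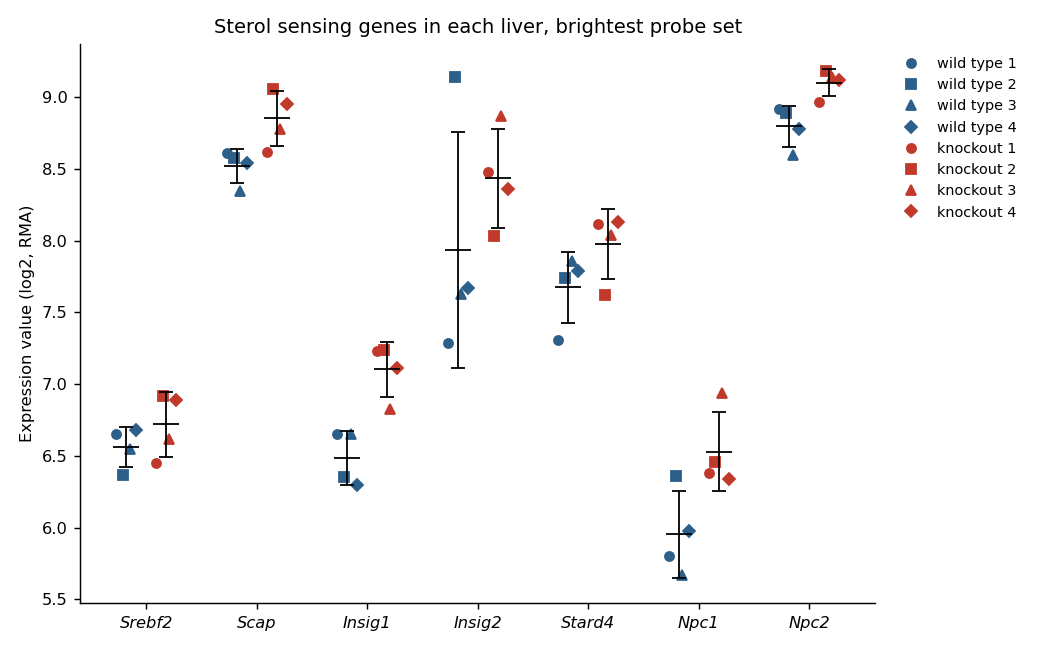
Expression value (log2, RMA) of the 7 genes in each of the 8 livers, by the brightest probe set of each gene, with wild type in blue, knockout in red, a marker shape for each replicate number, and black bars for the mean and SD of 4 livers. The groups are apart for Scap, Insig1 and Npc2, and wild type 2 stands high for Insig2 at 9.14.

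Srebf2, the regulator, had the smallest difference of the 7 members by brightest probe set, and a larger one on its second. Its brighter probe set read 6.45, 6.92, 6.62 and 6.89 in knockout livers 1 to 4 and 6.65, 6.37, 6.55 and 6.68 in wild type livers 1 to 4. The groups overlapped, with knockout 1 below 3 of the wild type livers. The knockout exceeded wild type by 0.16 ± 0.13 (SE), which is 1.11-fold with a 95% interval of 0.91 to 1.36-fold (limma adjusted p = 0.721). A second probe set read 5.73, 5.99, 5.91 and 6.07 in the knockout and 5.54, 5.23, 5.77 and 5.75 in wild type livers. Here wild type 3 and wild type 4 reached just above knockout 1, and the difference was 0.35 ± 0.14 (limma adjusted p = 0.339). The 95% interval of that difference was 0.05 to 0.66, with an unadjusted limma p of 0.0275. Both probe sets moved together over the 8 livers (Pearson r = 0.789), and on either of them the interval excludes a doubling.

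Scap, the escort that senses sterol and carries SREBP2, read 8.62, 9.06, 8.78 and 8.95 in the knockout and 8.61, 8.58, 8.35 and 8.54 in wild type livers. The groups did not overlap, though knockout 1 stood only 0.01 above wild type 1. The difference was 0.33 ± 0.12 (SE), 1.26-fold with a 95% interval of 1.05 to 1.51-fold (limma adjusted p = 0.281). Its other probe set lay between 2.53 and 2.95 on all arrays, below the median of every array, is not shown to be above background, and differed by -0.05 ± 0.11 (limma adjusted p = 0.924).

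Insig1, the retention protein whose gene answers to SREBP2, was the member closest to the threshold. Its single probe set read 7.23, 7.24, 6.83 and 7.11 in the knockout and 6.65, 6.35, 6.65 and 6.30 in wild type livers. The lowest knockout liver, knockout 3, stood 0.18 above the highest wild type livers. Group means were 7.10 ± 0.19 (SD, n = 4) and 6.49 ± 0.19. The difference was 0.61 ± 0.13 (SE), 1.53-fold with a 95% interval of 1.25 to 1.87-fold (limma adjusted p = 0.0687). It passed in 3 of 21 alternative settings: with array weights (0.63, limma adjusted p = 0.0368), with the Y-linked mean as a covariate (0.56, limma adjusted p = 0.0485), and when each gene was the mean of its probe sets (0.61, limma adjusted p = 0.0397), where fewer features are tested. Over all 21 settings its difference was 0.49 to 1.00.

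Insig2, the second retention protein, varied more between wild type livers than any other member. Its brightest probe set read 8.48, 8.03, 8.87 and 8.36 in the knockout and 7.29, 9.14, 7.63 and 7.67 in wild type livers. Wild type 2 was the highest of all 8 livers, while the other 3 of its group lay below every knockout liver. The wild type SD was 0.82 against 0.35 in the knockout. The difference was 0.50 ± 0.36 (SE), 1.42-fold with a 95% interval of 0.82 to 2.46-fold (limma adjusted p = 0.67). Without wild type 2 it was 0.90 (limma adjusted p = 0.0682), and without wild type 1 it was 0.29 (limma adjusted p = 0.823). These were the highest and lowest differences on leaving out each array in turn.

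The high value of wild type 2 was seen on all 3 probe sets of Insig2, which measure the same RNA and are not separate replicates. The second read 7.03, 8.60, 7.22 and 7.44 in wild type livers and between 7.80 and 8.71 in the knockout, with a difference of 0.61 ± 0.32 (limma adjusted p = 0.527). The third read 6.03, 7.71, 6.54 and 6.54 in wild type livers while in the knockout it was lowest in knockout 2, at 6.23, and highest in knockout 3, and it differed by 0.45 ± 0.40 (limma adjusted p = 0.755). Correlations between the 3 over the 8 livers were 0.908 to 0.975. Wild type 2 did not stand high for Insig1, at 6.35 among wild type values of 6.30 to 6.65.

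**Figure D2:**
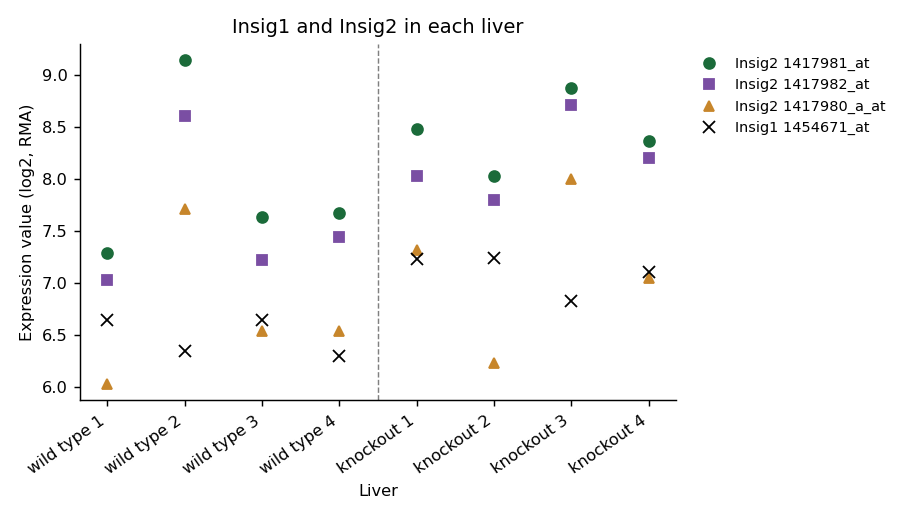
Expression value (log2, RMA) of the 3 Insig2 probe sets and the single Insig1 probe set in each liver, wild type left and knockout right of the dashed line. All 3 Insig2 probe sets are high in wild type 2, at 9.14, 8.60 and 7.71, while Insig1 there is 6.35.

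Stard4, a soluble carrier of sterol between membranes, has 3 probe sets that agreed only in part. The brightest read 8.12, 7.62, 8.04 and 8.13 in the knockout and 7.31, 7.74, 7.86 and 7.79 in wild type livers. Knockout 2 lay below 3 wild type livers, and the difference was 0.30 ± 0.15 (SE), 1.23-fold with a 95% interval of 0.97 to 1.57-fold (limma adjusted p = 0.507). The second read 8.32, 8.24, 7.70 and 7.69 in the knockout and 7.34, 7.49, 7.56 and 7.47 in wild type livers. Its groups did not overlap, knockout 1 and knockout 2 were the high ones, and the difference was 0.52 ± 0.16 (limma adjusted p = 0.199). The third lay between 6.65 and 7.25 in the knockout and between 6.51 and 6.97 in wild type livers and differed by 0.27 ± 0.15 (limma adjusted p = 0.567). The brightest correlated with the second at r = 0.386 and with the third at r = 0.76 over the 8 livers.

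Npc1, the lysosomal membrane protein that exports cholesterol, read 6.38, 6.46, 6.94 and 6.34 in the knockout and 5.80, 6.36, 5.67 and 5.98 in wild type livers. Wild type 2 lay 0.02 above knockout 4, and each other pair of a knockout and a wild type liver had the knockout higher, 15 of 16 in all. The difference was 0.58 ± 0.18 (SE), 1.49-fold with a 95% interval of 1.14 to 1.96-fold (limma adjusted p = 0.204). Without each array in turn it was 0.44 to 0.72 (limma adjusted p 0.0804 to 0.476), lowest without knockout 3 and highest without wild type 2.

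Npc2, the soluble lysosomal protein that passes cholesterol to NPC1, read 8.97, 9.18, 9.14 and 9.12 in the knockout and 8.92, 8.89, 8.60 and 8.78 in wild type livers. The groups were 0.05 apart at their nearest. The difference was 0.31 ± 0.10 (SE), 1.24-fold with a 95% interval of 1.06 to 1.45-fold (limma adjusted p = 0.25). A second probe set of like brightness overlapped, since wild type 2 at 9.05 was above knockout 1 and knockout 2, and differed by 0.23 ± 0.12 (limma adjusted p = 0.507). The other 2 probe sets, with means of 3.48 and 2.26 in the knockout, are not shown to be above background and differed by -0.05 ± 0.21 and 0.00 ± 0.11 (limma adjusted p = 0.959 and 0.998).

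**Figure D3:**
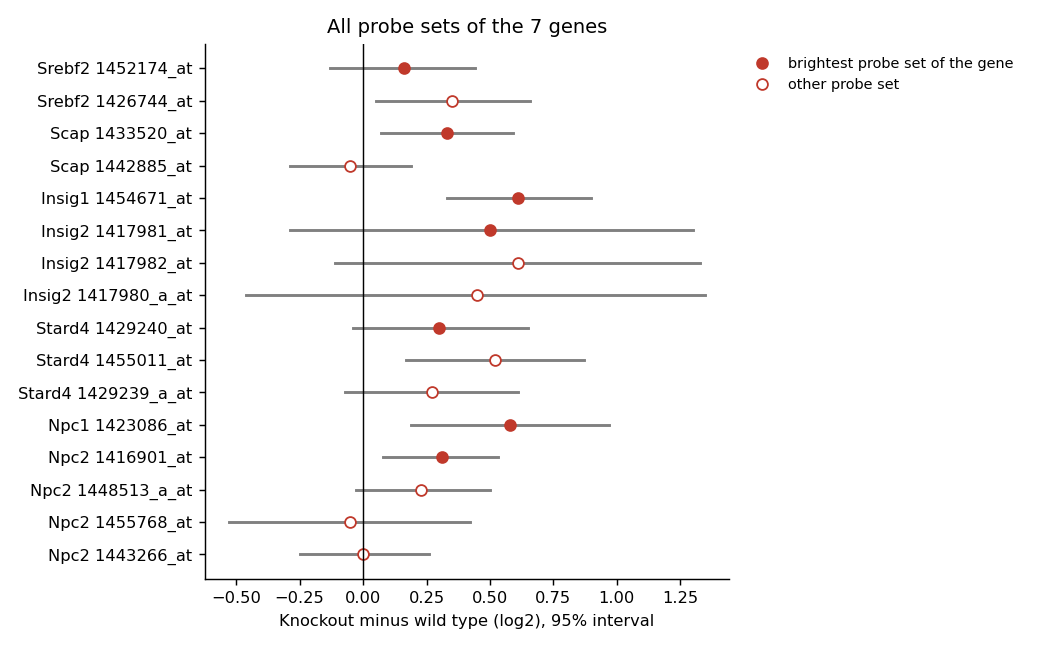
Knockout minus wild type difference (log2) of all 16 probe sets of the 7 genes with the 95% interval of the limma fit; filled points are the brightest probe set of a gene. The interval lies above 0 for 6 probe sets, and it is widest for the 3 of Insig2.

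The differences are also given within replicates 1 and 2 and within replicates 3 and 4, where each set holds 2 livers a genotype. Insig1 differed by 0.73 within replicates 1 and 2 and by 0.49 within replicates 3 and 4, and Stard4 by 0.35 and 0.26 on its brightest, 0.86 and 0.18 on its second and 0.20 and 0.33 on its dimmest probe set. The other order held for Insig2, at 0.04 and 0.96, for Npc1, at 0.35 and 0.81, for Npc2, at 0.17 and 0.44, and for Scap, at 0.24 and 0.42. Srebf2 stood at 0.18 and 0.14. Whether the sets differ was not tested, and within replicates 1 and 2 Xist was high in the knockout pair and low in the wild type pair.

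Unequal change between members was tested for 5 pairs chosen by role, with an exact permutation test over the 70 ways to split the livers, two-sided, for which the smallest p is 0.0286. By the brightest probe sets the gap was largest for Insig1 and Srebf2: the value of Insig1 less that of Srebf2 ran from 0.21 to 0.78 in knockout and from -0.38 to 0.10 in wild type livers. The change in Insig1 thus exceeded that in Srebf2 by 0.46 (exact permutation p = 0.0286, adjusted over the 5 pairs 0.143). A single pair at the smallest p cannot go below 0.143 after adjustment, and 3 pairs would have to reach it to pass. Insig1 exceeded Insig2 by 0.11 (exact permutation p = 0.857, adjusted 0.857) and Scap by 0.28 (exact permutation p = 0.2, adjusted 0.333). Stard4 exceeded Srebf2 by 0.15 (exact permutation p = 0.571, adjusted 0.714), and Npc1 exceeded Npc2 by 0.27 (exact permutation p = 0.2, adjusted 0.333). By the mean of a gene's probe sets the order differed, with 0.47 for Insig1 and Scap, 0.46 for Npc1 and Npc2 and 0.36 for Insig1 and Srebf2. Neither unequal nor equal change is shown for any pair. The pair of INSIG genes turned on single livers, with a change in Insig1 less that in Insig2 of -0.33 without wild type 2 and -0.06 without knockout 2.

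With the mean of the red cell precursor markers as a covariate, the Insig1 difference was 1.00 ± 0.28 (SE) and those of Srebf2, Scap, Npc1 and Npc2 were 0.22 ± 0.31, 0.37 ± 0.28, 0.25 ± 0.41 and 0.24 ± 0.24. Insig2 and Stard4 changed sign in that fit, to -0.33 ± 0.81 and -0.10 ± 0.34. The marker mean parts the genotypes without overlap, which widens these errors.

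The enzymes of cholesterol synthesis are encoded by genes that SREBP2 turns on. Of 18 measured enzyme genes 10 rose past the threshold and 0 fell, 17 had higher means, and the median difference was 1.17 against 0.01 for all genes, of which 0.308% rose. Nsdhl and Msmo1, which remove methyl groups from the sterol ring, averaged 8.71 ± 0.19 (SD, n = 4) and 8.74 ± 0.31 in knockout against 7.33 ± 0.32 and 6.58 ± 0.64 in wild type livers, with limma adjusted p of 0.0204 and 0.025. Lss, which closes the ring, averaged 7.96 ± 0.32 and 6.34 ± 0.42 (limma adjusted p = 0.0255). Fdft1, which makes squalene, averaged 9.35 ± 0.35 and 8.16 ± 0.17 (limma adjusted p = 0.0278). Over all 18 the differences ran from -0.23 to 2.16, a range wide enough to hold all 7 members. Insig1, at 0.61, lay below the enzyme median of 1.17. The lowest rise among the 10, which were picked by the threshold, was 0.79, and no gap to Insig1 was tested. The count of 10 fell on leaving out single arrays. Without knockout 4 or wild type 4 it was 0, and without wild type 3 it was 2. Leaving out knockout 1 gave 3, and knockout 2 or 3 gave 5. Calls over all probe sets fell too, from 343 to 13, 9 and 13 without knockout 4, wild type 4 and wild type 3. Without each array in turn 14 or 15 of the 18 had an unadjusted limma p under 0.05, as had 8.99% to 13% of all probe sets. Their median difference was then 1.00 to 1.26. Within replicates 1 and 2 alone 2 passed, in a fit that called 4 of 45037 probe sets. Within replicates 3 and 4 alone 2 passed, in a fit that called 461. The red cell precursor markers moved in the same comparison. In the fit with their mean, which called 0 of 45037 probe sets, 0 of the enzymes passed, with a median of 1.55. There 13 enzymes and 5.14% of all probe sets had an unadjusted limma p under 0.05. The list was chosen with earlier results known, and its direction is not independent evidence. Of 16 enzyme genes with a promoter window, 15 held CCAAT, 14 held GGGCGG, 3 held CACGTG, 2 held TCACNCCA and 0 held ATCACCCCA. In that order 33.8%, 32.7%, 6.02%, 3.67% and 0.24% of all windows held the motifs. Those shares are per window, while Dhcr7 has 3 windows and Pmvk has 2. The 16 include Acat2, which was not among the 18 measured. Here too a window without ATCACCCCA does not show that a gene lacks a sterol regulatory element.

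**Figure D4:**
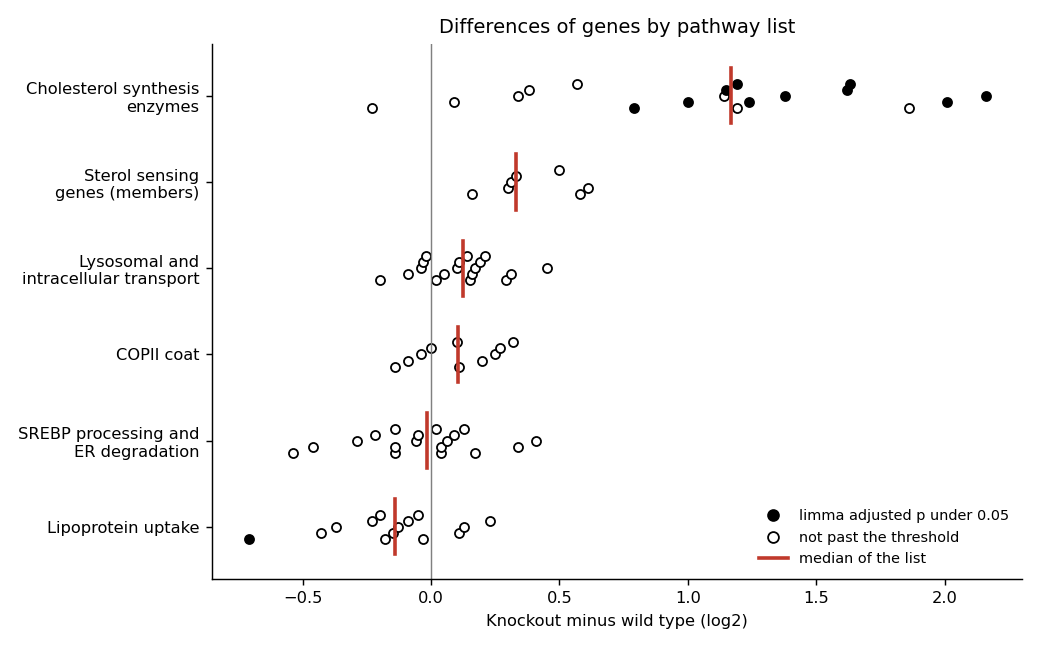
Knockout minus wild type difference (log2) of each measured gene in 6 lists, filled where the limma adjusted p is under 0.05, with the median of each list as a red bar. The medians are 1.17 for the enzymes, 0.33 for the 7 members, 0.13, 0.10 and -0.01 for the next 3 lists, and -0.14 for lipoprotein uptake.

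The machinery around SCAP showed 0 of 18 genes past the threshold in limma, with 4 at an unadjusted p under 0.05, 2 higher and 2 lower, and a median of -0.01. At that level 14.6% of all genes were found in either direction. This list holds the Golgi proteases, ubiquitin ligases and other partners in the endoplasmic reticulum. The lowest p was that of Srebf1, the gene of the related factor SREBP1, at -0.46 ± 0.15 (SE; limma adjusted p = 0.241). Mbtps1 and Mbtps2, the proteases that release SREBP2, stood at 0.04 ± 0.12 and 0.34 ± 0.15 (limma adjusted p = 0.939 and 0.393), and were picked for their role with their values known. Of 10 genes of the COPII coat, which carries SCAP from the endoplasmic reticulum, 0 passed in limma and 1 had an unadjusted p under 0.05, Sec31a, at 0.25 ± 0.10 (limma adjusted p = 0.354).

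Of 18 genes of lysosomal and intracellular sterol transport 0 passed in limma and 1 had an unadjusted p under 0.05, as had 14.6% of all genes. Higher means were found for 13, against 53.3% of all genes, but for 10 within replicates 1 and 2 and for 9 with the erythroid mean as covariate. The gene with the lowest p was Tmem97, a sterol-responsive partner of NPC1, at 0.45 ± 0.16 (SE; limma adjusted p = 0.303). In the list of lipoprotein uptake 11 of 14 genes had lower means in the knockout, against 46.7% of all genes, and 1 passed. Within replicates 1 and 2 alone 9 of the 14 had higher means, and with the erythroid mean as covariate 7 had, so the side they lay on was not stable. Lrpap1, a chaperone of receptors that take up lipoproteins, fell from 8.66 ± 0.22 (SD, n = 4) to 7.95 ± 0.13, by 0.71 ± 0.13 (limma adjusted p = 0.0441), as 0.841% of all genes fell past the threshold. That count of 1 became 0 on leaving out any single liver other than knockout 2 and wild type 2. The fits in which it became 0 called 9 to 177 probe sets in all, against 343 in the main fit. Without each array in turn the Lrpap1 difference was -0.80 to -0.65, with an unadjusted limma p of 5.22e-05 to 0.000993. Within replicates 1 and 2 Lrpap1 stood at -0.56 and within replicates 3 and 4 at -0.85. In the fit with the erythroid mean Lrpap1 stood at -0.41 ± 0.28 (SE; limma adjusted p = 0.939), a fit in which 0 of all 45037 probe sets passed and 5.14% had an unadjusted p under 0.05.

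Several members followed each other across livers. Pearson r over the 8 livers ran from -0.357, for Srebf2 with Insig2, to 0.933, for Scap with Npc2. Next below the highest were Npc1 with Npc2 (0.806), Insig2 with Npc1 (0.794) and Srebf2 with Scap (0.745). For the deviations from the genotype means Insig2 and Npc1 had r = 0.808, and Scap and Npc2 also moved together within genotypes. Insig1 and Npc1 had r = 0.414 over all livers and -0.827 for the deviations, the lowest of any pair. Other pairs also had negative r for the deviations, such as Stard4 with Scap and with Npc2 (both -0.666) and Srebf2 with Insig2 (-0.657). These values share arrays and their normalization and are given as a description.

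Among 11374 other named genes with a mean above the median of all probe sets, the patterns most like each member were found by Pearson r over the 8 livers. Prodh2 (0.973) and Sh3glb2 (0.953) were nearest to Srebf2, and Fam174b (0.99) and Ptgds (0.975) to Scap. Klhl26 (0.974) and Myl6 (0.954) were nearest to Insig1, and Diaph2 (0.945) and Golim4 (0.94) to Insig2. Gdap10 (0.975) and Mycbp2 (0.971) were nearest to Stard4. Rhobtb1 (0.987) and Nfrkb (0.974) were nearest to Npc1, and Lmbrd1 (0.987) and Zfas1 (0.987) to Npc2. For the deviations from the genotype means the same 14 pairs had r between 0.8 and 0.975. Those r come from the same 8 livers that picked the pairs, so they are no separate support. Each pair is the extreme of a search over 11374 genes with 8 values each. How high r would reach there by chance was not tested, and no shared control is shown. None of these 14 genes passed the threshold in limma, with adjusted p between 0.136 and 0.918. No cholesterol synthesis enzyme was among the 14, which says little, since only 2 of 11374 genes were kept for each member.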

How the data were processed

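The values are log2 expression values deposited by the authors and made by RMA (submitters' processing notes); the sources used here name no software or settings. RMA gives all arrays a shared distribution, so a change in total mRNA cannot be seen. Values ran from 1.11 to 13.7, with array medians of 3.68 to 3.73. The 64 array controls were left out of 45101 probe sets. Arrays give no depth; their number, 4 against 4, limits precision, and p-values measure the spread between these livers. Of the rest, 34945 probe sets have 1 gene, 932 several and 9160 none; names were checked against the RefSeq gene table of GRCm38.p6, which held 34741 of the identifiers. The brightest probe set by mean stood for a gene.

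Knockout and wild type were compared with limma 3.58.1 in R 4.3.3 (lmFit, eBayes, two-sided, no covariate), with Benjamini-Hochberg adjustment over 45037 probe sets and a threshold of 0.05, after the fit was tested on simulated data. The members and lists were chosen with earlier results of these data known. Named genes are the members, up to 4 genes past the threshold per pathway list or the 1 with the lowest p, and the 2 most like each member; others are said to be chosen later. Motifs were searched on both strands of 250-base windows. Replicate numbers are tied to no litter or batch by the labels. Deviations of same-numbered arrays correlated at -0.0039, 0.0689, 0.174 and 0.259, so they were not taken as pairs. Alternatives covered filtering, normalization, variance models, array weights, blocks, covariates, probe set choice and leaving out each array. Cell type lists other than those reported had 0 markers past the threshold in limma: neutrophil (10 measured), B cell (7), endothelial (9), stellate (9), bile duct (5) and megakaryocyte (6), as had the 12 hepatocyte markers.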

Additional observations from a re-analysis of the deposited data

Results flagged for a closer look

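The lowest knockout value of the brightest Stard4 probe set, 7.62 in knockout 2, stood apart from the other 3 knockout livers, of which the nearest was 8.04. It was the 1 of 32 groups of 4 values, over the 16 probe sets, with an end value so far from the rest, and chance alone gives about 1 in 20 such groups. On the other Stard4 probe sets knockout 2 read 8.24, the second highest of the knockout livers, and 6.65, the lowest. Without knockout 2 the difference of the brightest probe set was 0.42 in place of 0.30 (limma adjusted p = 0.269). Without wild type 1 it was 0.18 (limma adjusted p = 0.673), the lowest on leaving out each array in turn.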

How the results depend on the processing

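The count of 0 members past the threshold in limma held in 18 of 21 settings and became 1, Insig1, with array weights, with the Y-linked mean as a covariate and with the mean of a gene's probe sets. The count of 0 member probe sets became 1 with array weights and with the Y-linked mean as a covariate. Without each array in turn both counts stayed at 0. With the erythroid mean as a covariate Insig2 was -0.33 and Stard4 -0.10; in every other setting each member kept a higher knockout mean. With the replicate number as a block (replicate block) the enzyme count of 10 and the uptake count of 1 became 0. An unadjusted limma p under 0.05 was found there for 14 of 18 enzymes, 3 of 14 uptake genes and 12.5% of all probe sets. All probe sets past the threshold fell from 343 to 15, and 3 of the 8 arrays correlated best with their own number. The enzyme count was 2 within replicates 1 and 2, where 4 probe sets passed in all, and 2 within replicates 3 and 4, where 461 passed. With the erythroid covariate it was 0, with a median of 1.55, in a fit that called 0 of 45037 probe sets. In that fit 13 enzymes and 5.14% of all probe sets had an unadjusted limma p under 0.05. The uptake count was 0 after quantile normalization, within each replicate set and with the erythroid covariate, and 2 with array weights. Without each array in turn the enzyme count was 0 to 8 and the uptake count 0 to 1, in fits that called 9 to 489 probe sets in all. The unequal change of Insig1 and Insig2 was -0.33 to 0.38 and that of Stard4 and Srebf2 0.00 to 0.33 without each array in turn. The causes were not tested. Dim probe sets of Scap and Npc2 limit what can be said of those transcripts.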

Other observations

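Insig1 and the enzymes of cholesterol synthesis both had higher means in knockout livers, with Pearson r = 0.835 over the 8 livers between Insig1 and the enzyme mean, which includes the difference between genotypes. The mean of the 18 enzyme genes was 8.03, 8.18, 7.76 and 8.09 in knockout livers 1 to 4 and 6.56, 6.69, 7.22 and 7.26 in wild type livers 1 to 4. For deviations from the genotype means, Pearson r with that enzyme mean was 0.162 for Insig1 and 0.365 and 0.662 for the 2 probe sets of Srebf2. It was 0.352, 0.391 and 0.278 for the 3 probe sets of Stard4. It was negative for Npc1, at -0.5, for the 2 bright probe sets of Npc2, at -0.606 and -0.625, and for the brightest Insig2 probe set, at -0.384. Scap stood at -0.129, and at 0.0356 for its dim probe set. These values rest on 8 livers that share the arrays' normalization and are a description.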
